A study of Caenorhabditis elegans with 12 samples.

Results

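The miRNAs of wild-type Caenorhabditis elegans at the last larval stage, L4, are described here from 3 small RNA libraries of whole animals of the N2 strain. All 370 count features that carry the name of a known miRNA, not a predicted one, were taken out of 471 in the table, in 3 of the 12 libraries of the series. The other 9 libraries come from mbl-1 mutants, labelled mbl-1(tm1563), mbl-1(syb4318) and mbl-1(syb4345), with 3 libraries each. mbl-1 encodes the worm Muscleblind RNA-binding protein, and per the design text the wild type was the reference for a mutant of the gene and for lines that make a short or a long protein isoform. The N2 libraries are labelled wild-type, with no mutant allele of mbl-1 named. Every group was synchronized by bleaching, fed OP50 bacteria, grown at 20 °C and described as biological replicates. The column names of the mutants hold the codes Mbl_1, CR_MED and CR_SH, which no label ties to an allele, so the codes are used here.

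A miRNA gene is transcribed as a longer RNA that folds back on itself, and the hairpin is cut to a duplex of 2 short strands, the 5p arm and the 3p arm. An Argonaute protein keeps one strand, which pairs with target mRNAs mainly through its seed, the bases near its 5′ end, while the other strand is usually degraded. miRNAs that share a seed form a family and can repress overlapping targets. In C. elegans the lin-4 and let-7 families set the order of larval cell fates, and the mir-35 family acts in embryos.

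The wild-type libraries held 8493518, 9784205 and 12053039 counts. Levels are given as CPM, a count scaled to a library total of 1000000. The limit set by a count of 0 was 3 counts, or 0.353, 0.307 and 0.249 CPM, which covers counting error only. Named features detected with 1 count or more numbered 281, 317 and 320. After thinning to the total of library 1, libraries 2 and 3 were expected to show 313.1 and 311.5. In all, 274 of the 370 were detected in all 3 libraries, 28 in 2, 40 in 1 and 28 in none. The 25 features seen in libraries 2 and 3 but not in library 1 had at most 15 counts in those libraries together.

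Small numbers of miRNAs filled the libraries. Features were ordered by their mean share over the 3 libraries. Of the named counts, the 10 leading features took 81.9%, 75.2% and 76.7% in libraries 1, 2 and 3 (77.9% ± 3.49, mean ± SD, n = 3). The 20 leading features took 92.0% ± 1.15 on average. The number of features needed for 90% of the counts was 16, 19 and 19, and for 99% it was 48, 54 and 51. Library 1 was the most concentrated of the 3, with 68.7% in the 5 leading features of this order against 58.4% in each of the others.

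**Figure D1:**
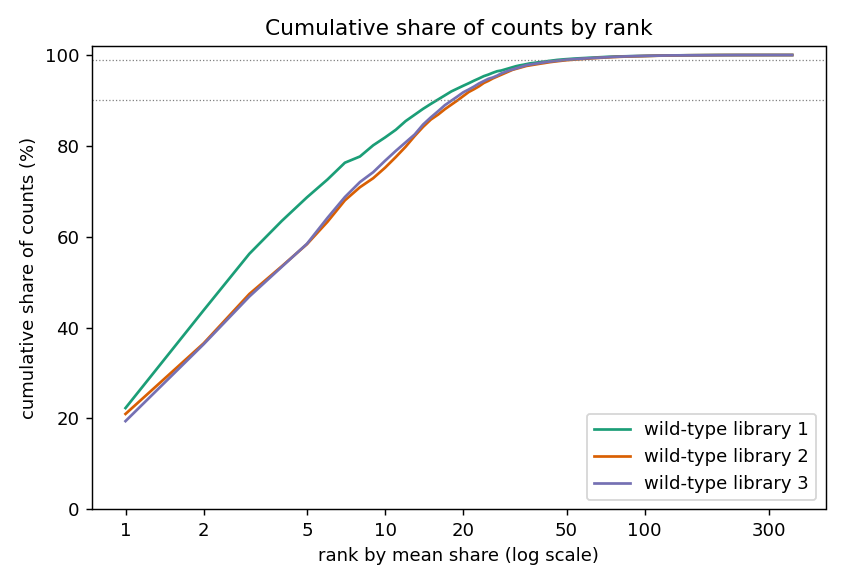
Cumulative share of named counts in percent (vertical axis) against rank by mean share (horizontal axis, log scale), with a line for each wild-type library and dotted lines at 90% and 99%. The line of library 1 lies above the others at rank 20 and reaches 99% at 48 features, against 54 and 51 in libraries 2 and 3. The 5 leading features hold 68.7% of the counts of library 1 against 58.4% in each of the other libraries.

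The most abundant was miR-1-3p, the conserved muscle miRNA, which took 22.28%, 20.98% and 19.4% of the named counts in libraries 1, 2 and 3. It ranked first in every library. Second in every library was miR-70-3p with 21.5%, 15.6% and 16.9%, so its highest library lay above the lowest 2 libraries of miR-1-3p. The ranges of these 2 miRNAs overlapped, although miR-1-3p was higher within each library. Next in every library were miR-58a-3p (11.3% ± 1.03) and miR-82-3p (6.63% ± 0.569), both of the mir-58 family, which is related to the growth regulator bantam of flies. miR-44-3p stood at 5.04% ± 0.170 and miR-80-3p, again of the mir-58 family, at 4.86% ± 0.894, and these 2 exchanged ranks 5 and 6 between library 1 and the others. Then came miR-48-5p, a let-7 family member that acts in the passage from early to late larval cell fates, with 4.32% ± 0.552.

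Below these, neighbours in rank were close. The lifespan miRNA miR-71-5p took 1.37%, 2.90% and 3.30%, and ranked 13 in library 1 but 8 in the others. From rank 8 to rank 15 the mean shares ran from 2.52% to 1.43%, through miR-71-5p, miR-81-3p, miR-228-5p, miR-64-5p, miR-238-3p, miR-54-3p, miR-65-5p and miR-66-5p. miR-61-3p, miR-72-5p, miR-59-3p, miR-57-5p and miR-85-3p closed the leading 20 with shares from 1.14% to 0.821%. Of the 20 neighbour pairs from rank 1 to rank 21, 16 had overlapping ranges over the 3 libraries and 4 did not. Those 4 were miR-70-3p over miR-58a-3p, miR-58a-3p over miR-82-3p, miR-82-3p over miR-44-3p, and miR-48-5p over miR-71-5p. The order was the same in all 3 libraries for 11 of the 20 pairs. All 20 leading features ranked in the first 20 of each library, and 12 of them were 3p arms and 8 were 5p arms.

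**Figure D2:**
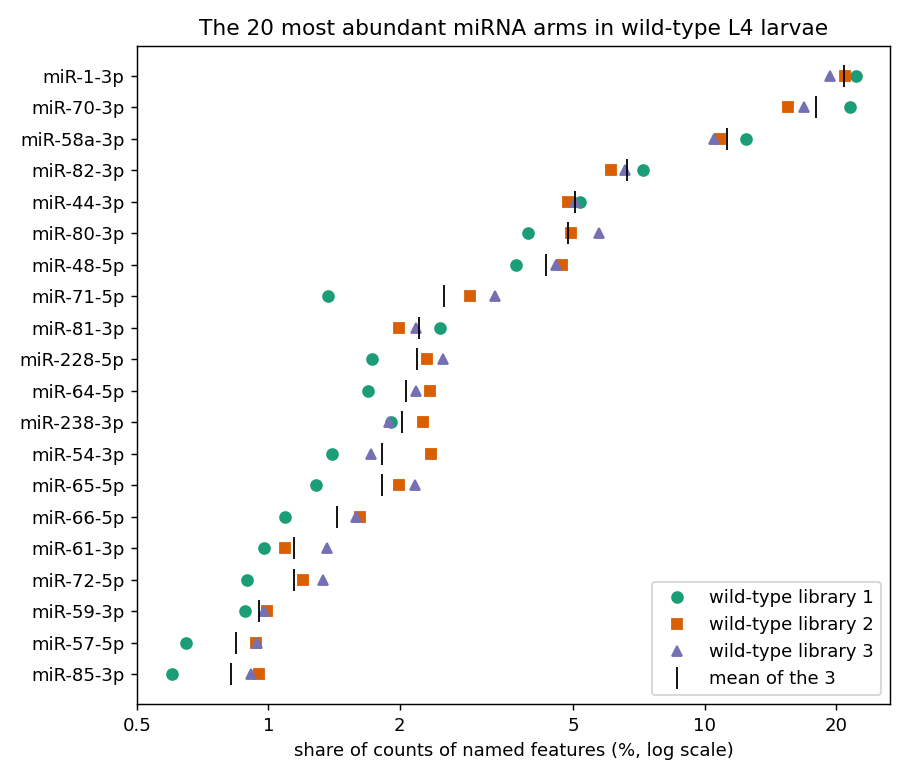
Share of named counts (horizontal axis, percent, log scale) of the 20 leading miRNA arms in each of the 3 wild-type libraries (circles, squares and triangles for libraries 1, 2 and 3), with the mean as a bar. miR-1-3p and miR-70-3p lead in every library, and miR-71-5p is set apart in library 1, at 1.37% against 2.90% and 3.30%.

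The spread between libraries was set against counting error by abundance. Among the 17 features at 10000 CPM or more, the median coefficient of variation (CV, SD over mean) was 17.1%, against a median of 0.211% from counting alone. It was 19.4% for 20 features from 1000 to 10000 CPM, 14.4% for 46 features from 100 to 1000 CPM and 21.2% for 81 features from 10 to 100 CPM. The counting medians of these 3 classes were 0.514%, 1.99% and 5.90%. From 1 to 10 CPM the median CV was 36.5%, where counting alone gives 17.0% (65 features). Under 1 CPM it was 98.2%, against 70.7% from counting (113 features). The first 2 of these classes held 89.4% and 8.64% of the named counts.

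Library 1 moved with part of this spread. Of the 83 features at 100 CPM or more, 61 were lower in library 1 than in both other libraries and 10 were higher than in both. The median log2 ratio of library 1 to the mean of libraries 2 and 3 was -0.31, against 0.03 for library 2 over library 3. The largest gaps among the 83 were those of miR-77-5p (1600, 3970 and 4798 CPM, log2 ratio -1.45), miR-790-5p (63.3, 147 and 160 CPM), miR-45-5p (70.3, 155 and 175 CPM) and miR-71-5p (13680, 28960 and 33030 CPM, log2 ratio -1.18). Higher in library 1 were miR-42-3p (log2 ratio 0.59), miR-70-3p (0.41), miR-86-5p (0.39) and lin-4-5p (0.34). The share of miR-70-3p and the shares of the other miRNAs are parts of one total, so a larger share of one lowers the rest, and the part of this in the library 1 values was not tested. The order of the 83 features was nevertheless close between libraries, with Spearman's rho across features of 0.992, 0.985 and 0.992 for the 3 pairs of libraries.

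Counts were also summed by seed family. The 18 families of related miRNAs listed here, with 63 features, took 71.9% ± 1.11 of the named counts (71.0% to 73.2%). The mir-58 family led with 26.06%, 23.89% and 24.95% in libraries 1, 2 and 3, above the 20.9% ± 1.44 of the mir-1 family, and its lowest library was above the highest of the mir-1 family. Inside it, miR-58a-3p made up 45.1% ± 2.82, miR-82-3p 26.5% ± 1.12, miR-80-3p 19.6% ± 4.03 and miR-81-3p 8.84% ± 0.578, while miR-58b-3p had 0, 1 and 1 counts. miR-58c, with 25, 61 and 84 counts, was not in the list of this family. The family members are close in sequence and may share reads, and how such reads were counted is not given. Reads counted for more than 1 member would raise the family total. The part of this in the member shares and in the lead over the mir-1 family was not tested. In contrast, the mir-1 family was miR-1-3p alone in practice.

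The next families were of similar size. The mir-44 family took 6.18% ± 0.234, of which miR-44-3p was 81.5% ± 2.66 and miR-61-3p 18.5% ± 2.67. The value of miR-44-3p can include reads of the identical strand of mir-45, which was not analysed here as a feature of its own. The mir-64 family took 4.22%, 6.16% and 6.09%, shared by miR-64-5p (38.0% ± 2.17 of it), miR-65-5p (32.9% ± 2.60) and miR-66-5p (26.1% ± 0.251). miR-63-3p and miR-229-5p gave 1.47% and 1.58% of the family. The let-7 family took 4.62%, 5.91% and 5.82%. Ranges of the mir-64 and let-7 families overlapped.

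Within the timing families the founding members did not have the most counts. Strands that differ in sequence can be ligated with unequal efficiency, and the part of this in the shares was not tested. miR-48-5p made up 79.3% ± 0.727 of the let-7 family, let-7-5p itself 11.1% ± 0.602, miR-84-5p 5.71% ± 0.256 and miR-241-5p 3.49% ± 0.312. These proportions were close to constant over the 3 libraries, and miR-793, miR-794-5p and miR-795-5p stayed under 0.4% each. In the lin-4 family, miR-237-5p held 70.1%, 77.5% and 79.1%, and lin-4-5p, the first miRNA found in any animal, the remaining 29.9%, 22.5% and 20.9%. The family took 0.507% ± 0.0265 of all named counts.

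The mir-51 family, broadly expressed and needed for development, took 3.23% ± 0.638. miR-54-3p was 55.9% ± 3.80 of it, miR-51-5p 19.1% ± 2.99 and miR-52-5p 18.2% ± 1.10, and miR-53-5p, miR-55-3p and miR-56-3p were each at or under 3.04%. The mir-238 family (2.03% ± 0.208) was nearly all miR-238-3p, at 99.9% ± 0.0305 of it, with miR-239a-5p and miR-239b-5p making the rest. The mir-72 family (1.25% ± 0.237) was 91.2% ± 0.757 miR-72-5p, and the mir-46 family (0.969% ± 0.249) was 71.3% ± 1.30 miR-47-3p. The mir-50 and mir-87 families took 0.284% ± 0.0230 and 0.209% ± 0.0319. The largest features outside the listed families were miR-70-3p (18.0% ± 3.13), miR-71-5p and miR-228-5p (2.19% ± 0.408).

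**Figure D3:**
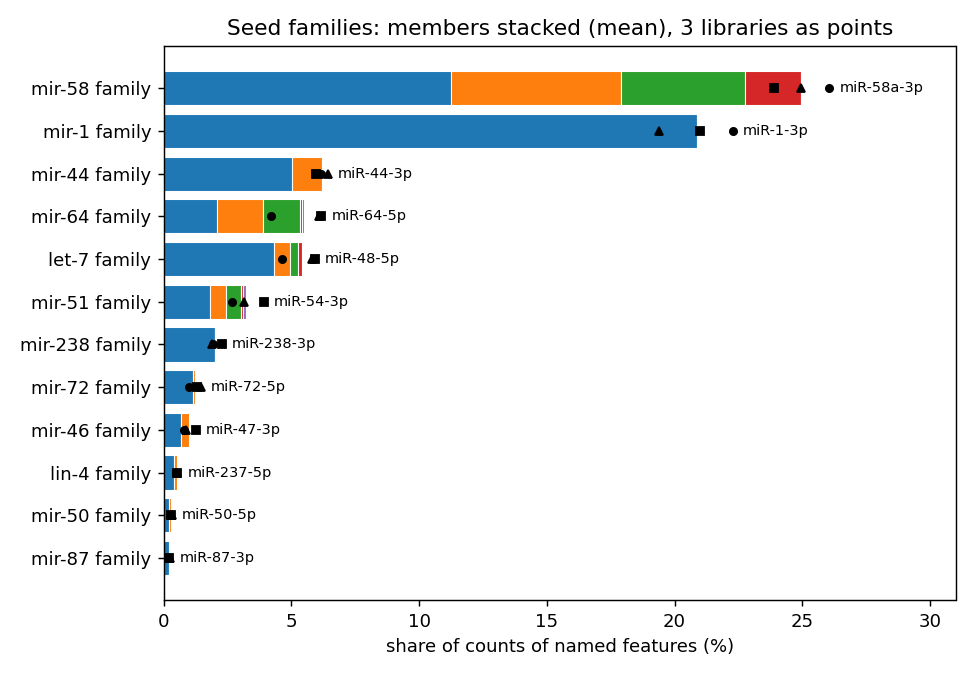
Share of named counts in percent (horizontal axis) of the 12 largest listed seed families, with members stacked as coloured segments from their mean over 3 wild-type libraries and the leading member named. Black points are the family totals of libraries 1 (circle), 2 (square) and 3 (triangle), and the mir-58 and mir-1 families stand at 24.97% and 20.89%, above all other families.

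Which arm of the hairpin was kept was tested for each precursor from the 5p and 3p counts of the same libraries. Both arms were listed for 152 precursors, and 128 with at least 30 counts over both arms and the 3 libraries were tested. By edgeR's quasi-likelihood test with the library as a block and Benjamini-Hochberg adjustment over the 128, 120 differed at an adjusted p under 0.05 (93.8%). The 3p arm was higher for 77 (60.2%) and the 5p arm for 43 (33.6%). The test sets an arm against the other arm of the same hairpin, and reads of strands that differ in sequence can be ligated with unequal efficiency, the part of which was not tested.

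Arm choice was one-sided for most precursors. The major arm took 99% or more of the precursor's counts in 48 of the 128 and from 90% to 99% in another 48. In 17 it took from 75% to 90% and in 14 from 50% to 75%. The last one was mir-77, whose 5p arm had more counts in sum but a mean share of 49.2%. The median major arm share was 98.0%. It was 99.9% for the 17 precursors at 10000 CPM or more, 98.9% for 20 from 1000 to 10000 CPM, 97.2% for 32 from 100 to 1000 CPM, 95.2% for 33 from 10 to 100 CPM and 94.0% for 26 under 10 CPM. All minor arms together held 0.785% ± 0.121 of the named counts, and 0.458% ± 0.0547 with mir-77 left out.

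The leading precursors show the size of the bias. For mir-1 the 5p arm had 1523, 2579 and 2372 counts and the 3p arm 1892291, 2052743 and 2337931, a log2 ratio of 5p to 3p of -9.95 (SE 0.26, edgeR adjusted p = 4.05e-10). For mir-70 the 5p arm had 185, 374 and 302 counts against 1828339, 1521408 and 2039806 (log2 ratio -12.66, SE 0.37). The 5p arm was thus 0.102% ± 0.0225 of mir-1 and 0.0165% ± 0.00738 of mir-70. For mir-48 the sides were exchanged, with 313441, 460550 and 550655 counts on the 5p arm and 345, 432 and 488 on the 3p arm (10.01, SE 0.26, edgeR adjusted p = 3.33e-10). mir-80 was the least one-sided of the 10 leading precursors, with 1.97% ± 0.169 of its counts on the 5p arm. For lin-4 the 3p arm had 1 count in each library beside 12167, 11706 and 12815 on the 5p arm. The minor arm was at 0 in all 3 libraries for 8 tested precursors, among them mir-787 and mir-234, where 0 counts allow a minor arm share of up to 0.0513% and 0.0530%.

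By counts, the pool was mostly 3p strand. The 3p arms held 79.5% of the counts of precursors with both arms listed. The 5p share was 15.9%, 22.6% and 23.0% in libraries 1, 2 and 3, lowest in library 1, where miR-1-3p and miR-70-3p were highest. Among the 17 precursors at 10000 CPM or more, the 3p arm was major for 10 and the 5p arm for 7. Among the 20 from 1000 to 10000 CPM it was the reverse in direction, with the 5p arm major for 12. These 12 include mir-77 and mir-86, for which neither arm was called. From 100 to 1000 CPM the 3p arm was major for 25 of 32.

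**Figure D4:**
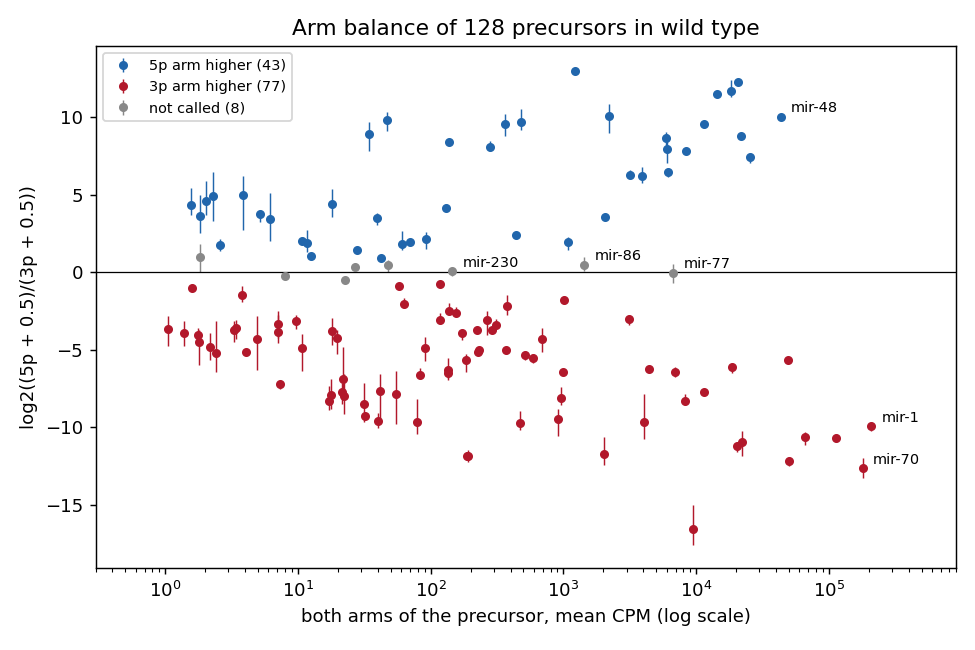
Arm balance of the 128 tested precursors in wild type as log2 of the 5p over the 3p count, with 0.5 added to each (vertical axis), against the mean CPM of both arms (horizontal axis, log scale). Points are means of 3 libraries and lines reach from the lowest to the highest library, with 43 precursors called for the 5p arm (blue), 77 for the 3p arm (red) and 8 not called (grey, near 0).

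Both arms were kept in similar amounts at few precursors. The most abundant was mir-77, on chromosome II at 12519268 to 12519367 (WBcel235, plus strand, in no protein-coding gene of that strand). Its 5p arm had 13588, 38841 and 57828 counts and its 3p arm 21811, 38133 and 40435. The 5p arm was thus lower in library 1, near equal in library 2 and higher in library 3, with a log2 ratio of -0.05 (95% interval -0.64 to 0.55, edgeR adjusted p = 0.867). mir-86, in an intron of Y56A3A.7 on chromosome III, had 8500, 8409 and 8011 counts on the 5p arm and 4303, 6363 and 7639 on the 3p arm. Its 5p arm was higher in all 3 libraries, by little in library 3, and it was not called (log2 ratio 0.48, interval -0.12 to 1.09, edgeR adjusted p = 0.108). mir-230 was even, at 51.1% ± 4.37 on the 5p arm (log2 ratio 0.06, interval -0.40 to 0.52).

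Others of this kind were less abundant. mir-4813 (58.0% ± 7.06 on the 5p arm) and mir-1829b (55.4% ± 5.28, with reads that its near-identical copies may share) were not called, and neither was mir-67 (40.7% ± 1.56, edgeR adjusted p = 0.0555). The remaining 2 precursors without a call, mir-8186 and mir-8206, were chosen for naming after their values were seen and were under 10 CPM. Called but mild were mir-5592 (36.7% ± 0.772 on the 5p arm), mir-795 (35.2% ± 3.42), mir-231 (65.0% ± 1.37) and mir-4816 (73.4% ± 2.30). The libraries lay on opposite sides of 50% for 3 of the 128, mir-77, mir-230 and mir-1829b. For mir-4813 and mir-8206 the arms were equal in 1 library and the 5p arm was higher in the other two.

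Families were then set against arms, since members of a family can carry the shared seed on different sides of their hairpins. Of 59 family members with both arms listed, the arm listed for the family was the major one for 54. The list was written after the counts had been seen, so this number describes the list and is no test of arm choice. In 6 of the 16 families with 2 or more such members, some members are listed for the 5p arm and others for the 3p arm. Families follow generally known membership, since seeds were not read from sequence here. The mir-51 family is one: mir-51, mir-52 and mir-53 are listed for the 5p arm, and mir-54, mir-55 and mir-56 for the 3p arm. In the mir-64 family, mir-63 uses its 3p arm (77.8% of its counts) and mir-64 its 5p arm (99.98%). The remaining 4 are the mir-2, mir-50, mir-72 and mir-238 families.

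For 5 members the other arm was more abundant than the one named for the family. In mir-239a, of the mir-238 family, the listed 5p arm had 216, 175 and 226 counts and the 3p arm 858, 1196 and 1493, so the listed arm was the minor one in all 3 libraries (log2 ratio -2.50, SE 0.24, edgeR adjusted p = 3.49e-06). In mir-795, of the let-7 family, the 5p arm held 35.2% ± 3.42. In mir-41, of the mir-35 family, the 3p arm had 3, 14 and 2 counts against 28, 59 and 87 on the 5p arm. mir-231 and mir-58b were the others, the latter with 13 counts in all.

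In the genome, 212 of the 218 hairpin names matched 1 annotated position (Ensembl 115, WBcel235). Chromosomes V and I gave the most counts, 24.0% ± 2.42 and 23.8% ± 0.622, with mir-70 and mir-1 as main sources. The X chromosome, with 63 of the hairpins, gave 13.7% ± 0.136, and chromosome II, with 37, gave 9.31% ± 0.682. Hairpins inside introns of protein-coding genes of the same strand numbered 57 and gave 44.8% ± 2.60 of the named counts. The leading ones were mir-70 in pmp-5 (chromosome V, 6665536 to 6665635, minus strand), mir-58a in Y67D8A.2 (chromosome IV, 3233254 to 3233350, plus strand) and mir-82 in gid-2 (chromosome X, 2435258 to 2435354, minus strand). mir-1 lies at 6172662 to 6172757 on the minus strand of chromosome I, in no protein-coding gene of that strand. Over the 125 tested precursors with both arm lengths annotated, major arms were 17 to 26 nt long and minor arms 19 to 25 nt, with a median of 22 nt for each, so counts were compared without a correction for length.

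Hairpins within 10 kb of each other on the same strand formed 26 clusters of 72 hairpins, with 31.4% of the named counts. Neighbours in a cluster were often far apart in level. In 21 clusters the least abundant member had more than 3 counts in every library, and in 12 of these the most abundant member was at least 10-fold higher in every library. In the cluster mir-42/mir-43/mir-44 (chromosome II, 11889811 to 11890118, plus strand), mir-44 took 5.04% ± 0.169 of the named counts, mir-42 took 0.0135% ± 0.00362 and mir-43 took 4.03e-04% ± 1.86e-04. The mir-44 value can include reads of the identical strand of mir-45, which lies outside this cluster on the minus strand. The gap between mir-44 and its neighbours may thus be overstated. Next to mir-71 (2.54%), in an intron of ppfr-1, mir-2 took 0.0225%, and mir-71 was higher by 61.7-fold to 181-fold over the libraries. In the gcn-1 intron that holds mir-229, mir-64, mir-65 and mir-66, the last 3 were at 2.07% ± 0.344, 1.82% ± 0.469 and 1.43% ± 0.297, and mir-229 at 0.107% ± 0.0227. In the cluster mir-54/mir-55/mir-56, mir-54 was at 1.85% ± 0.488 and the others at 0.0963% ± 0.0103 and 0.0911% ± 0.0131. The mature levels in these clusters were thus unequal. Clusters were defined by position only, so whether their members share a transcript was not tested, and transcript levels were not measured.

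The stage and tissue labels were set against marker miRNAs. The 5 larval timing miRNAs (lin-4-5p, let-7-5p, miR-48-5p, miR-84-5p and miR-241-5p) were present in all 3 libraries, with summed levels of 47480, 60100 and 59010 CPM. The 8 listed 3p arms of the embryonic mir-35 family were also present in all 3, at 1255, 1473 and 1471 CPM in sum, led by miR-35-3p at 468 ± 74.2 CPM (mean ± SD, n = 3). Of this family miR-38-3p and miR-41-3p were under 1% each. Tissue markers were present for posterior cells (miR-57-5p, 8405 ± 1680 CPM), gonadal sheath (miR-246-3p, 4385 ± 812 CPM) and intestine (miR-60-3p, 3938, 5318 and 2887 CPM). Markers of neurons were low. miR-124-3p of sensory neurons had 48, 29 and 12 counts, lsy-6-3p of the taste neuron ASEL had 25, 22 and 15 counts, and miR-791-3p of the neurons that sense carbon dioxide had 18, 7 and 5 counts. Together these 3 were at 10.7, 5.93 and 2.66 CPM, so they fell from library 1 to library 3. In whole animals, a low level in many cells and a high level in few cannot be told apart.

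Mirtrons, whose hairpin ends are made by splicing, were rare. miR-62 had 469, 426 and 515 counts and miR-1020-3p had 340, 423 and 481. miR-1018, which unlike the other 3 lay in no annotated intron of its strand, had 24, 48 and 44 counts, and miR-1019-5p had 2, 0 and 0. The 4 together were at 92.1 ± 6.02 CPM.

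To ask whether the arm balance was particular to the wild type, the difference in log2 arm ratio between wild type and the mean of the 3 mutant lines was tested over all 12 libraries for 141 precursors. By edgeR with Benjamini-Hochberg adjustment, 5 precursors differed (3.55%), mir-788, mir-238, mir-39, mir-90 and let-7, with 25 at an unadjusted p under 0.05. Without wild-type library 3, by limma on log2 ratios and with 1 effect for all mutants, there were 0 calls, with 19, 22 and 18 precursors at an unadjusted p under 0.05. DESeq2 made 10 calls. Leaving out library 2 of CR_MED gave 10 calls, library 3 of CR_MED or library 2 of Mbl_1 gave 2, and library 1 of Mbl_1 or wild-type library 1 gave 3. Without wild-type library 2 there were 6 calls, of which only 3 were among the 5 precursors above. Of the 120 precursors with a called arm in wild type, 118 had the same major arm in the mean of each mutant line. The exceptions were mir-788 and the scarce mir-791.

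In mir-788 (X chromosome, 8485294 to 8485371, minus strand) the 5p arm held 18.5% ± 6.80 of the counts in wild type, at 26.1%, 16.2% and 13.1% in libraries 1, 2 and 3. It held 51.9% ± 10.3 in CR_MED, 27.1% ± 11.5 in CR_SH and 41.4% ± 3.55 in Mbl_1 (SD, n = 3 each). The wild-type libraries overlapped with those of CR_SH. The log2 difference, wild type minus mutants, was -1.57 (SE 0.335, 95% interval -2.27 to -0.88, edgeR adjusted p = 0.0170).

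In the other 4 the major arm was relatively more abundant in the mutants for 3 and less for 1. In mir-39, of the mir-35 family, the 5p arm held 2.47% to 3.35% in wild type and 0.946% to 2.16% in the mutants, without overlap (log2 difference 1.08, SE 0.28, edgeR adjusted p = 0.0361). In mir-90 it held 1.70% to 2.47% against 0.468% to 1.51%, again without overlap (1.18, SE 0.31). In mir-238 it held 0.0325% to 0.0499% against 0.0126% to 0.0297%, from 72 to 107 counts in wild type and 20 to 60 in the mutants (1.01, SE 0.23). In let-7 the major 5p arm held 99.2% to 99.8% in wild type and 96.4% to 99.6% in the mutants, with overlap (1.33, SE 0.36). The let-7 means were 97.7% in CR_MED, 99.4% in CR_SH and 99.1% in Mbl_1, against 99.5% in wild type, so CR_MED lay furthest from it. Without wild-type library 3 the let-7 difference was 0.85 and its edgeR adjusted p 0.3.

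**Figure D5:**
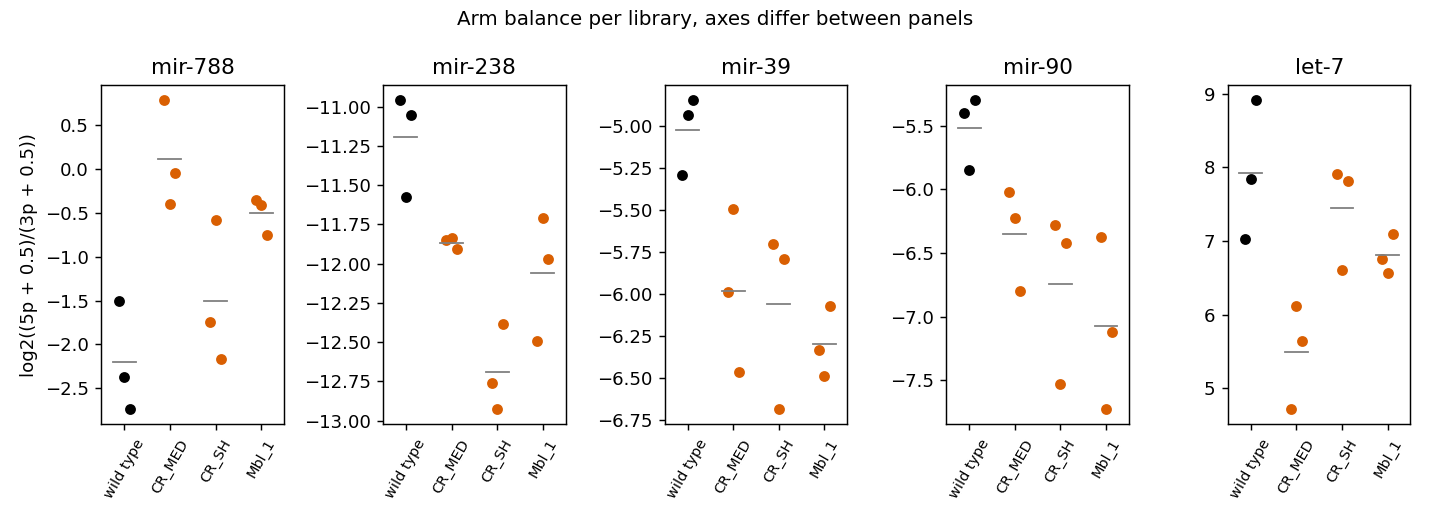
Arm balance per library, as log2 of the 5p over the 3p count with 0.5 added to each (vertical axes, which differ between panels), for the 5 precursors called between wild type (black) and the mutant lines coded CR_MED, CR_SH and Mbl_1 (orange), with line means as grey bars. Wild type lies apart from all 9 mutant libraries for mir-238, mir-39 and mir-90 and overlaps with some for mir-788 and let-7.

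The leading miRNAs of wild type were also set beside those of the mutants. The 10 leading wild-type features took 77.9% ± 3.49 of the named counts in wild type, 76.4% ± 2.25 in CR_MED, 75.9% ± 1.85 in CR_SH and 74.6% ± 2.77 in Mbl_1. Of the 20 leading features in wild type, 18, 19 and 18 were also in the leading 20 of CR_MED, CR_SH and Mbl_1, and of the leading 10, 9, 9 and 8 were in theirs. The first place belonged to miR-1-3p in CR_SH and Mbl_1 and to miR-70-3p in CR_MED. No test was made of these shares.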

How the data were processed

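Small RNA of 18 to 40 bases was sequenced from whole animals. The authors deposited raw counts per mature miRNA arm for all 12 libraries in 1 table. Bowtie, DESeq2 and the build WBcel235 are named per the submitters' processing notes. How reads that fit several miRNAs were counted is not given in the sources used here.

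Shares were taken of the counts of named features, and 101 predicted features were left out. Arms were compared with edgeR 4.0.16 (glmQLFit and glmQLFTest) in R 4.3.3, with the library as a block, library totals as sizes, at least 30 counts per precursor and Benjamini-Hochberg adjustment at 0.05. DESeq2 1.42.0 and limma 3.58.1 (pseudocount 0.5) were alternatives. With 3 libraries per line, p-values measure the spread between these replicates. Shares, ranks and families have no test, and they compare counts of different sequences without a correction for unequal ligation.

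Named were the 20 leading arms, the 12 largest families, the 10 leading precursors, up to 10 with an arm share from 25% to 75% and 300 counts, those whose major arm differed between libraries, the 6 most variable arms, the marker lists and the precursors called against the mutants. The members and lists were chosen with earlier results of these data known. Families were grouped by generally known membership, after the count table had been seen and not from sequence as planned, since no sequences were used here. Positions are from Ensembl release 115.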

Additional observations from a re-analysis of the deposited data

Results flagged for a closer look

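The arm balance of 5 precursors differed between wild type and the mutant lines by the test of that difference. The log2 difference, wild type minus mutants, was -1.57 for mir-788, 1.01 for mir-238, 1.08 for mir-39, 1.18 for mir-90 and 1.33 for let-7. Over 19 alternatives each, the call was kept in 16 for mir-788, 15 for mir-238, 12 for mir-39, 13 for mir-90 and 11 for let-7. The edgeR, DESeq2 or limma adjusted p ranged from 4.82e-04 to 0.151 for mir-788, from 0.00411 to 0.151 for mir-238, from 0.00498 to 0.151 for mir-39, from 0.0087 to 0.175 for mir-90 and from 0.00218 to 0.3 for let-7.

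Outside the named features, the 101 predicted miRNAs of the table held 2575 counts in the 3 wild-type libraries. Of these features 90 had counts and 11 had 10 or more in every library, and the leading one took 14.8% of their counts.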

How the results depend on the processing

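Arm calls within wild type numbered 97 to 126 under the alternatives, against 120 of 128 tested. Some alternatives changed the minimum count and so the number of precursors tested, so these counts have no common total. Against the mutant lines there were 5 calls, 4 with a higher 5p arm and 1 with a lower one in wild type. DESeq2 gave 10 of 141 tested, of which 4 were lower, and a minimum of 1 count gave 9 of 152 tested, of which 4 were lower. limma gave 0 in each direction, as did 1 effect for all mutant libraries. Leaving out 1 library in turn gave 0 to 10 calls, 0 to 6 higher and 0 to 4 lower. The log2 arm ratio of mir-77 ran from -0.33 to 0.27 and that of mir-230 from -0.039 to 0.20 with 1 library left out, so both changed sign. The replicate block left 5 calls. Same-numbered libraries correlated between -0.420 and 0.255 over all pairs, and over 0.1 in 4 of 9 pairs with wild type, so the numbers were not taken to pair the libraries. The causes were not tested. Of 180 alternatives for the arm balance of named precursors within wild type, 175 kept the direction and side of the threshold. Joining arms by identical sequence and seeds of bases 2 to 7 were not run. Under 10 CPM, counting error limits the values.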

Other observations

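Some features had equal counts in all 12 libraries, so their reads cannot be assigned to 1 of them. They were miR-55-5p and miR-55b (23, 52 and 34 counts in wild type), miR-786-5p and miR-8203-3p (5, 3 and 4) and miR-8196a-5p and miR-8196b-5p (0, 3 and 7). They were chosen for naming after their values were seen.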
